A study of Ovis aries with 41 samples.

Results

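Chemokines are small secreted proteins that guide the movement of leukocytes, and they act through receptors that span the cell membrane and signal through G proteins. A second, smaller family, the atypical chemokine receptors, binds chemokines without this signalling and takes them up or carries them. In skin, keratinocytes, fibroblasts, vessels and resident immune cells are known sources of chemokines, which hold T cells, dendritic cells and macrophages in the tissue at rest and recruit eosinophils, neutrophils and further lymphocytes during inflammation. The genes described here are all rows of the deposited gene counts whose symbol is CCL, CXCL, CX3CL, XCL, CCR, CXCR, CX3CR, XCR or ACKR followed by a number. They came to 43 genes of the 31182 in the counts, with 24 ligands, 15 typical receptors and 4 atypical receptors. Chemokines that the sheep annotation holds under other symbols, PPBP and the atypical receptor relative CCRL2 among them, are not included.

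The RNA came from tail skin of adult Improved Jezersko–Solčava rams, about a year old, which were homozygous at HOXB13, a homeobox gene that patterns the posterior body axis. The long-tailed D/D rams (n = 3) carried 2 copies of the derived allele, which has an insertion in the HOXB13 promoter, and the short-tailed A/A rams (n = 4) carried the ancestral allele without it. Each ram gave skin from the tail tip, the mid-tail and the tail base. Position was thus compared within rams, and genotype between rams of 1 breed that may differ in more than this allele. In the longer D/D tails the mid-tail and tip lie further from the base, and the paper cautions against comparing these sites directly between genotypes. Genotype differences there, also in the change from the base, cannot be told apart from distance along the tail. There were 41 libraries, 2 for each ram and position apart from 1 for the mid-tail of a D/D ram (871869), and they were summed to 21 ram sums, since libraries of the same ram are not separate animals.

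The libraries held 9177395 to 23431409 counts and the ram sums 17132063 to 37645752. Values are CPM, the counts of a gene scaled to the size of the ram sum with TMM factors. Differences are log2 fold changes of the quasi-likelihood fit of edgeR, D/D over A/A for genotype and tip or mid-tail over base for position. Their standard error (SE) was calculated from the test, as the absolute log2 fold change over the square root of its F statistic. A gene is said to have risen or fallen where the adjusted p (Benjamini-Hochberg over all genes of that comparison) was below 0.05. Values of single rams are in the order 871787, 871868 and 871869 for D/D and 835507, 871772, 871784 and 871932 for A/A. CPM were not divided by transcript length, so levels are compared between samples and not between genes. Keratinocyte markers, checked against the label of skin, summed to between 14821 and 45101 CPM in every ram sum. Whether fewer cells of a type or less RNA per cell lies behind a lower level cannot be told apart in bulk skin.

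Of the 43 genes, 37 passed the filter on low counts for the position comparisons, and 31, 33 and 33 passed it for D/D against A/A at the tip, mid-tail and base. The 6 that did not pass for position were CCL1, CCL16, CCR9, CCR10, CXCL1 and CXCL17. CXCL17 had no count in any library, CCR10 and CCL1 had 20 and 40 counts over all libraries, and CXCL1 had 109. Among ligands the mean over the 21 ram sums was 458 CPM for CXCL14, 154 CPM for CXCL12, 33.2 CPM for CCL21 and 26.4 CPM for CX3CL1. Among receptors it was 15.2 CPM for CXCR2 and 10.01 CPM for CXCR4, and 29.1 CPM for ACKR3 and 11.4 CPM for ACKR4 of the atypical kind. These means give the reads behind each gene and set no order of transcript levels.

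One A/A ram, 835507, stood apart in many of these genes. Of 72 sets of 4 A/A values (24 described genes with a mean of at least 1 CPM at 3 positions), 12 had a value that lay apart from the other 3, and 10 of these were high values of this ram. Its summed lymphatic endothelium markers at the mid-tail were 323 CPM, against 106 to 152 CPM in the other A/A rams. This list holds CCL21, which made up 88.2 CPM of the sum in this ram. Its summed macrophage markers at the mid-tail were 218 CPM, against 70.7 to 134 CPM. Some of the results that rest on this ram are given below with and without it.

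Skin of the tip held less of many chemokine and receptor transcripts than skin of the base. Over all rams, 8 of the 37 tested genes fell and 0 rose by edgeR: the ligands CCL26, CCL24, CCL27, CXCL13 and CXCL9, the receptors CCR4 and CCR8, and the atypical receptor ACKR2. These are 21.6% of the tested genes, where 2.67% of all 19029 genes tested fell and 1.82% rose; this is a comparison of shares with no test. At an unadjusted p below 0.05 there were 18 of 37, 14 of them lower, against 18.4% of all genes. That no gene rose depends on the tool, the rams and the unit of the fit. DESeq2 on the same sums called 11 genes, the same 8 with ACKR3 as lower, and CXCL14 and CXCL8 as higher. Without A/A ram 871784, edgeR called CXCL14 as higher over all rams. The 3 fits on single libraries called CXCL14, CXCL8 and CXCL16 as higher, and CCL19 and CCL22 as lower beside the same 8. In D/D rams 3 of 37 fell (CCL26, CCL24 and ACKR2) and none rose, against 0.462% of all genes lower and 0.121% higher. In A/A rams 3 of 37 fell (CCL26, CCL24 and CCL27), against 0.788% of all genes, and 1 rose (CXCL14), against 0.83% of all genes.

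Over all 37 tested genes, called ones included, most estimates were lower at the tip. In D/D rams 30 of the 37 had a lower estimate at the tip, with a median log2 fold change of -0.73, beside -0.02 over all genes. In A/A rams 22 of 37 were lower, with a median of -0.20, beside -0.01 over all genes. At an unadjusted p below 0.05 there were 16 of 37 in D/D rams, 15 of them lower, where 12.3% of all genes lay below it, and 8 of 37 in A/A rams, 5 of them lower, where 14.5% of all genes did.

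**Figure D1:**
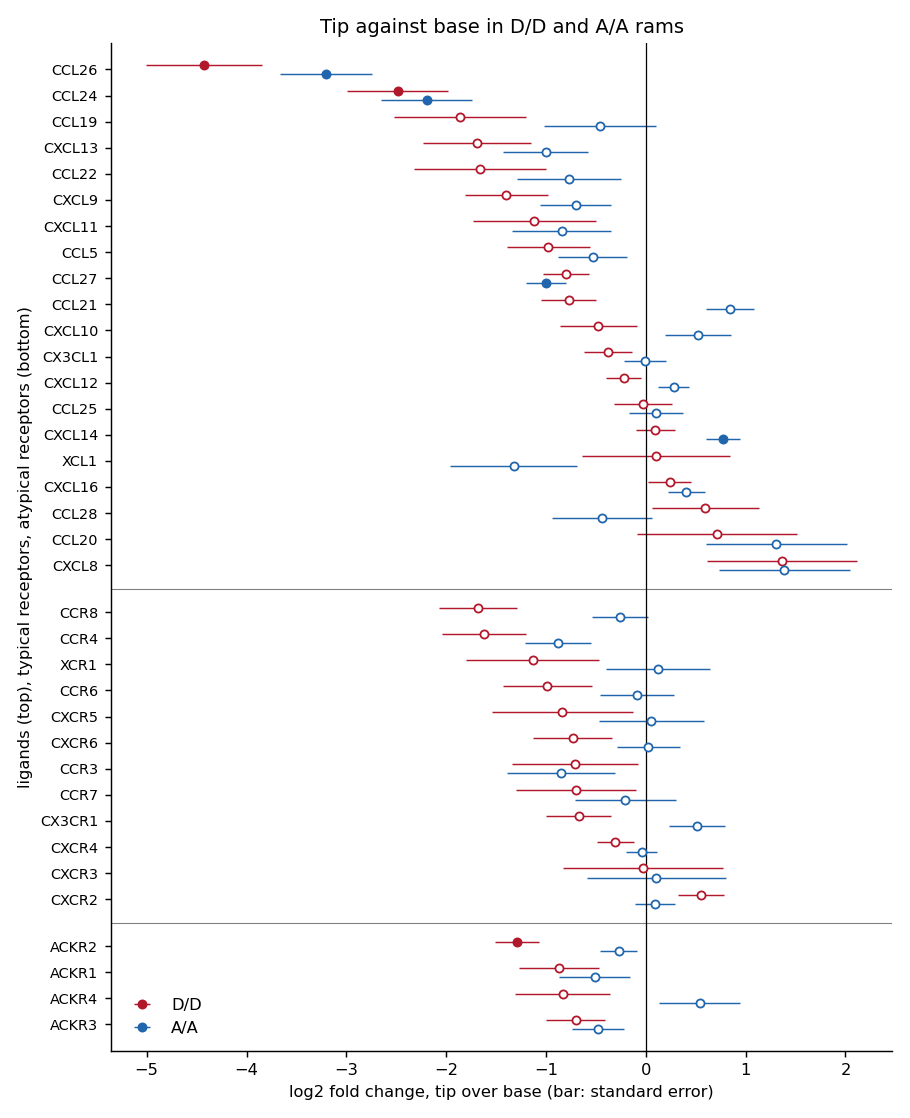
Log2 fold change of tip over base for the tested chemokine and receptor genes reported here in D/D rams (red, n = 3) and A/A rams (blue, n = 4), with bars for the SE; filled points have an adjusted p below 0.05. CCL26 and CCL24 lie furthest left in both genotypes, and CCL21 lies left of 0 in D/D rams (-0.77) and right of 0 in A/A rams (0.84).

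At the mid-tail no chemokine or receptor gene passed the adjusted p in either genotype or over all rams by edgeR. At an unadjusted p below 0.05 there were 3 of 37 in D/D rams, where 6.77% of all genes lay below it, and 7 of 37 in A/A rams, where 10.5% did. Over all rams 7 of 37 did, against 11.1% of all genes. Few genes of any kind passed here: 0.0263% of all genes in A/A rams and 0.137% over all rams. DESeq2 on the same sums called ACKR2 at the mid-tail of D/D rams, where it was lower (edgeR log2 fold change -0.96, SE 0.21), and CCL26 over all rams.

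CCL26 and CCL24 had the strongest fall along the tail. Both are eotaxins: in human, CCL26 (eotaxin-3) and CCL24 (eotaxin-2) act on the receptor CCR3, which is best known from eosinophils, and they are induced by the type 2 cytokines IL-4 and IL-13. In the RefSeq annotation of ARS-UI_Ramb_v3.0 they are neighbours on chromosome 24, with CCL26 at 34486612 to 34491172 and CCL24 at 34512873 to 34525773, which leaves 21700 bases between them.

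In D/D rams CCL26 measured 0.47, 0.59 and 0.33 CPM at the tip, 3.32, 4.68 and 6.22 CPM at the mid-tail and 13.4, 6.08 and 12.2 CPM at the base. Its A/A values were 6.03, 0.44, 0.96 and 0.62 CPM at the tip, 22.0, 3.95, 2.43 and 2.16 CPM at the mid-tail and 14.3, 10.2, 8.80 and 9.32 CPM at the base. Every ram was lower at the tip than at its own base, and the tip and base values did not overlap within either genotype. The mid-tail lay between tip and base in 6 of 7 rams, and in A/A ram 835507 it was the highest of the 3 positions.

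The log2 fold change of CCL26 from tip over base was -4.43 (SE 0.58, adjusted p = 0.0034, edgeR) in D/D rams and -3.20 (SE 0.46, adjusted p = 0.0031, edgeR) in A/A rams. Over all rams it was -3.81 (SE 0.37, adjusted p = 8.8e-05, edgeR). An exact two-sided sign-flip test on log2(CPM + 0.5) over the 7 rams gave p = 0.0156, the smallest that 7 rams allow, unadjusted and 1 of 34 genes tested in this way. CCL26 was also the gene of this family that fell from mid-tail to tip over all rams (tip over mid-tail -2.62, SE 0.36, adjusted p = 0.0152, edgeR), where 0.0263% of all genes fell and 0.0% rose. Its mid-tail over base change was -1.20 (SE 0.32, adjusted p = 0.155, edgeR) over all rams and did not pass. Without ram 835507 it was -1.43 and passed (adjusted p = 0.0276, edgeR). The tip over mid-tail call was lost in 5 of the 7 fits that left out 1 ram each, and held without A/A ram 835507 or 871932.

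CCL24 measured 1.40, 1.12 and 0.76 CPM at the tip, 1.99, 3.53 and 2.65 CPM at the mid-tail and 8.08, 3.15 and 7.52 CPM at the base of D/D rams. The A/A rams held 2.50, 0.50, 0.32 and 0.83 CPM at the tip, 7.97, 3.18, 1.60 and 2.52 CPM at the mid-tail and 3.94, 4.41, 4.15 and 2.29 CPM at the base. All 7 rams were lower at the tip than at the base, and the tip value of ram 835507 lay above the base value of ram 871932. The log2 fold change of tip over base was -2.49 (SE 0.51, adjusted p = 0.0372, edgeR) in D/D rams and -2.19 (SE 0.46, adjusted p = 0.0275, edgeR) in A/A rams, and -2.34 (SE 0.34, adjusted p = 0.0012, edgeR) over all rams.

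All 3 calls in D/D rams were lost when any 1 of the 3 D/D rams was left out. CCL26 still lay between -5.00 and -4.15 in these fits (adjusted p = 0.0607 to 0.102, edgeR). The D/D call of CCL24 was also lost without A/A ram 871932. In A/A rams CCL26 passed in all 7 fits with a ram left out, with -3.82 (adjusted p = 0.0013, edgeR) without ram 835507. CCL24 in A/A rams lost its call without ram 871772, 871784 or 871932, and CCL27 without ram 835507, 871772, 871787 or 871932.

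**Figure D2:**
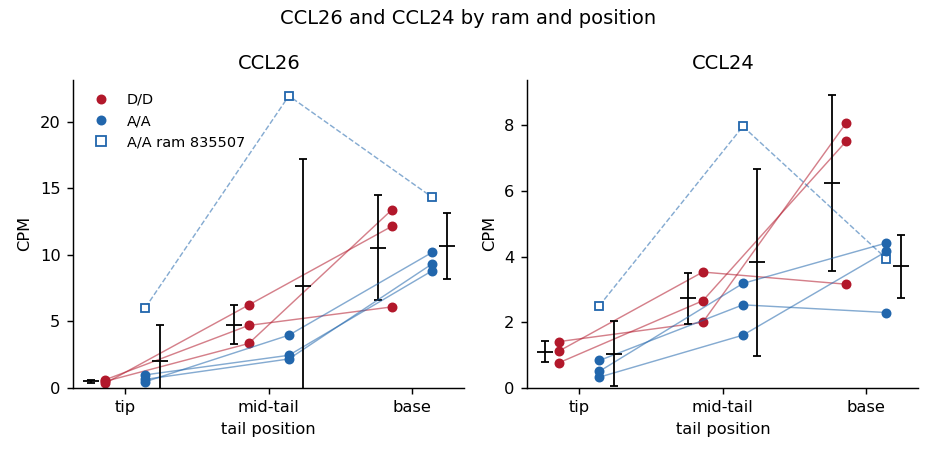
CPM of CCL26 and CCL24 in each ram at tip, mid-tail and base; lines join the samples of a ram, open squares are A/A ram 835507, and black marks are the mean with the SD over 3 D/D or 4 A/A rams, with lower ends cut off at 0 CPM. CCL26 averaged 0.46 CPM at the D/D tip and 10.5 CPM at the D/D base, and 2.01 CPM at the A/A tip and 10.7 CPM at the A/A base.

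The nearest genes on either side that were tested did not share this fall. Genes lying closer had mean levels of at most 0.07 CPM and were not tested. The nearest tested neighbours were LOC121817886 before CCL26 (tip over base -0.06, SE 0.22) and RHBDD2 after CCL24 (-0.10, SE 0.15), and neither passed the test (adjusted p = 0.915 and 0.784, edgeR). CCL26 and CCL24 correlated across the 21 ram sums (Pearson r = 0.90; 0.92 after each ram's mean was taken out). These points share rams, positions and library depth, and the value is a description.

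The receptor of both ligands had few counts. CCR3 measured 0.26, 0.28 and 0.07 CPM at the tip and 0.16, 0.33 and 0.49 CPM at the base in D/D rams, and 0.30, 0.14, 0.21 and 0.25 CPM at the tip and 0.18, 0.38, 0.53 and 0.48 CPM at the base in A/A rams, from 161 counts over all 41 libraries. Its tip over base change was -0.78 (SE 0.42, adjusted p = 0.344, edgeR) over all rams, so a difference was not detectable at this depth. CX3CR1, the fractalkine receptor, to which human CCL26 also binds, changed by -0.08 (SE 0.21) over all rams; it was lower at the tip in 3 of 3 D/D rams (-0.67, SE 0.32) and higher in 3 of 4 A/A rams (0.51, SE 0.28), and none of these passed.

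Of the list of 18 type 2 response genes in the counts, 14 were tested, and 1 fell over all rams while none rose (median -0.24). It was ALOX15, a lipoxygenase induced by IL-4 and IL-13 in human monocytes and epithelium (tip over base -3.53, SE 0.53, adjusted p = 0.0015, edgeR). The cytokine IL33 changed by -0.42 (SE 0.20) and the receptor chain IL4R by 0.02 (SE 0.14), and neither passed. Of the eosinophil markers, 2 genes had rows, IL5RA and CCR3, so their sum is not separate from the CCR3 values above. They summed to 0.15 to 0.76 CPM at the tip and 0.25 to 0.76 CPM at the base. The granule protein genes PRG2 and EPX had no row of their symbol. The part of eosinophils in the level of CCL26 and CCL24 was not tested.

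Likeness to CCL26 was taken as Pearson r of log2(CPM + 0.5) over the 21 ram sums, among 15737 genes with a mean of at least 1 CPM. Among the genes most like CCL26 were SCARA5 (r = 0.940), a ferritin receptor, PRDM8 (0.935), a histone methyltransferase family member, and GREB1 (0.906), an oestrogen-responsive gene. CCL24 (0.902) was also among them, as was LYVE1 (0.898), a hyaluronan receptor of lymphatic endothelium and some macrophages. All 5 fell from base to tip over all rams, with log2 fold changes of tip over base between -2.57 and -1.33. They were picked for likeness to CCL26, which itself fell, over the same samples. Their shared fall thus follows largely from this choice and is a description only. LYVE1 measured 6.34, 4.37 and 2.87 CPM at the tip and 46.9, 14.7 and 49.9 CPM at the base of D/D rams, and 18.5, 7.70, 3.77 and 3.07 CPM at the tip and 19.98, 58.0, 36.0 and 12.8 CPM at the base of A/A rams.

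CCL27, a chemokine made by keratinocytes that draws skin-homing T cells through CCR10, fell at the tip over all rams. It measured 15.8, 13.1 and 21.6 CPM at the tip and 28.9, 32.7 and 25.8 CPM at the base of D/D rams, and 14.6, 11.4, 22.3 and 11.7 CPM at the tip and 31.2, 21.03, 33.4 and 31.8 CPM at the base of A/A rams. All 7 rams were lower at the tip, and the highest tip value of A/A rams lay just above their lowest base value. The log2 fold change was -0.90 (SE 0.15, adjusted p = 0.0033, edgeR) over all rams, -0.997 (SE 0.20, adjusted p = 0.0215, edgeR) in A/A rams and -0.80 (SE 0.23, adjusted p = 0.131, edgeR) in D/D rams. CCL27 was lower in all 7 rams at the mid-tail too (-0.49, SE 0.15, adjusted p = 0.228, edgeR), without passing.

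The summed keratinocyte markers ranged from 21461 to 45101 CPM at the tip and from 14821 to 27711 CPM at the base. They were higher at the tip than at the base in 6 of 7 rams and lower in A/A ram 835507. Of the 9 markers 1 rose, KRT1, a keratin of differentiating epidermis (1.33, SE 0.26, adjusted p = 0.0080, edgeR), none fell, and 7 had a higher estimate at the tip (median 0.33). Their part in the level of CCL27 was not tested. The receptor CCR10 held 20 counts over all libraries and was not tested. On chromosome 2, CCL27 (36902527 to 36906415) lies near CCL19 (36883460 to 36885298) and CCL21 (36861993 to 36863196), ligands of CCR7. Their changes over all rams differed: -1.16 (SE 0.43) for CCL19 and 0.03 (SE 0.18) for CCL21, and neither passed.

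ACKR2, an atypical receptor that takes up and degrades inflammatory CC chemokines and is known from lymphatic endothelium, fell at the tip of D/D rams. It measured 3.45, 4.85 and 7.30 CPM at the tip, 5.31, 5.62 and 8.52 CPM at the mid-tail and 13.3, 9.43 and 14.6 CPM at the base of D/D rams. Its levels in A/A rams were 17.1, 4.99, 6.29 and 6.55 CPM at the tip, 19.8, 6.17, 8.55 and 8.71 CPM at the mid-tail and 13.5, 7.79, 8.06 and 8.76 CPM at the base. All 3 D/D rams held more at the base than at either other position, with no overlap, whereas the A/A positions overlapped and ram 835507 was high throughout.

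The log2 fold change of ACKR2 from tip over base was -1.29 (SE 0.22, adjusted p = 0.0147, edgeR) in D/D rams and -0.27 (SE 0.18) in A/A rams, and -0.78 (SE 0.14, adjusted p = 0.0053, edgeR) over all rams, where 6 of 7 were lower. The exception was A/A ram 835507, with 13.5 CPM at the base and 17.1 CPM at the tip, so the small A/A change rests partly on this ram. The difference between the genotypes in the tip over base change was -1.02 (SE 0.28, unadjusted p = 0.0025, adjusted p = 0.662, edgeR). Over the 16 alternatives, each ram left out among them, it lay between -1.20 and -0.70 and never passed. At the mid-tail the difference was -1.03 (SE 0.28, adjusted p = 0.861, edgeR). A difference between genotypes thus did not pass over all genes. Its level moved with that of CCL26 over the 21 ram sums (r = 0.76).

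The other atypical receptors had no call by edgeR on all 21 ram sums. ACKR3, which scavenges CXCL12, changed by -0.59 (SE 0.20, adjusted p = 0.105, edgeR) over all rams and was lower at the tip in 6 of 7. It was called as lower by DESeq2 on ram sums and on single libraries and by edgeR without ram 871772, and in D/D rams when these were fitted on their own. ACKR1, which binds chemokines on venules, changed by -0.69 (SE 0.27, adjusted p = 0.171, edgeR), lower in 4 of 7, and was called as lower by DESeq2 on single libraries. ACKR4, which takes up CCL19, CCL21 and CCL25, changed by -0.83 (SE 0.47) in D/D rams and 0.54 (SE 0.41) in A/A rams; it measured 12.8, 8.88 and 1.60 CPM at the D/D tip and 17.0, 8.63 and 11.1 CPM at the D/D base, and 21.4, 9.42, 8.74 and 13.8 CPM at the A/A tip and 27.1, 6.81, 7.81 and 3.86 CPM at the A/A base.

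The receptors CCR4 and CCR8 fell at the tip over all rams. CCR4, a receptor of CCL22 on T cells, measured 0.47, 0.50 and 0.18 CPM at the tip and 1.15, 1.33 and 1.11 CPM at the base of D/D rams, and 2.47, 0.78, 1.00 and 0.25 CPM at the tip and 3.18, 1.36, 1.95 and 0.96 CPM at the base of A/A rams. All 7 rams were lower at the tip than at the base, and the D/D values did not overlap. CCR4 fell over all rams (-1.25, SE 0.27, adjusted p = 0.0143, edgeR), and the values within genotypes were -1.62 (SE 0.42, adjusted p = 0.0947, edgeR) in D/D rams and -0.88 (SE 0.33, adjusted p = 0.222, edgeR) in A/A rams.

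CCR8, a receptor of regulatory and type 2 helper T cells whose ligand is CCL1, measured 0.30, 0.36 and 0.18 CPM at the tip, 0.85, 0.70 and 1.73 CPM at the mid-tail and 0.82, 1.00 and 0.99 CPM at the base of D/D rams. The corresponding A/A values were 2.80, 1.30, 1.24 and 1.08 CPM at the tip, 4.53, 1.39, 1.46 and 1.82 CPM at the mid-tail and 2.61, 1.41, 1.80 and 1.53 CPM at the base. At the tip and at the base the D/D rams all lay below the A/A rams, and the tip was lower than the base in 6 of 7 rams but not in ram 835507. CCR8 fell from base to tip over all rams (-0.97, SE 0.24, adjusted p = 0.0315, edgeR), with -1.68 (SE 0.39, adjusted p = 0.0642, edgeR) in D/D rams and -0.26 (SE 0.28) in A/A rams. This call of CCR8 was lost in 5 of the 7 fits that left out 1 ram.

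These values rest on few counts, 758 of CCR4 and 807 of CCR8 over all libraries. Both receptors moved together across the 21 ram sums (r = 0.85) and with CCL22 (r = 0.75 and 0.82), a chemokine of dendritic cells and macrophages. CCL22 itself was lower at the tip in 7 of 7 rams (-1.22, SE 0.42, adjusted p = 0.121, edgeR) but did not pass, and CCL1, the ligand of CCR8, held 40 counts and was not tested. The T cell markers give a like direction at a smaller size: 10 of 10 were tested, 9 were lower at the tip (median -0.54) and none passed, and their sum was 16.7 to 29.3 CPM at the tip and 22.9 to 30.3 CPM at the base. Their part in the fall of CCR4 and CCR8 was not tested.

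**Figure D3:**
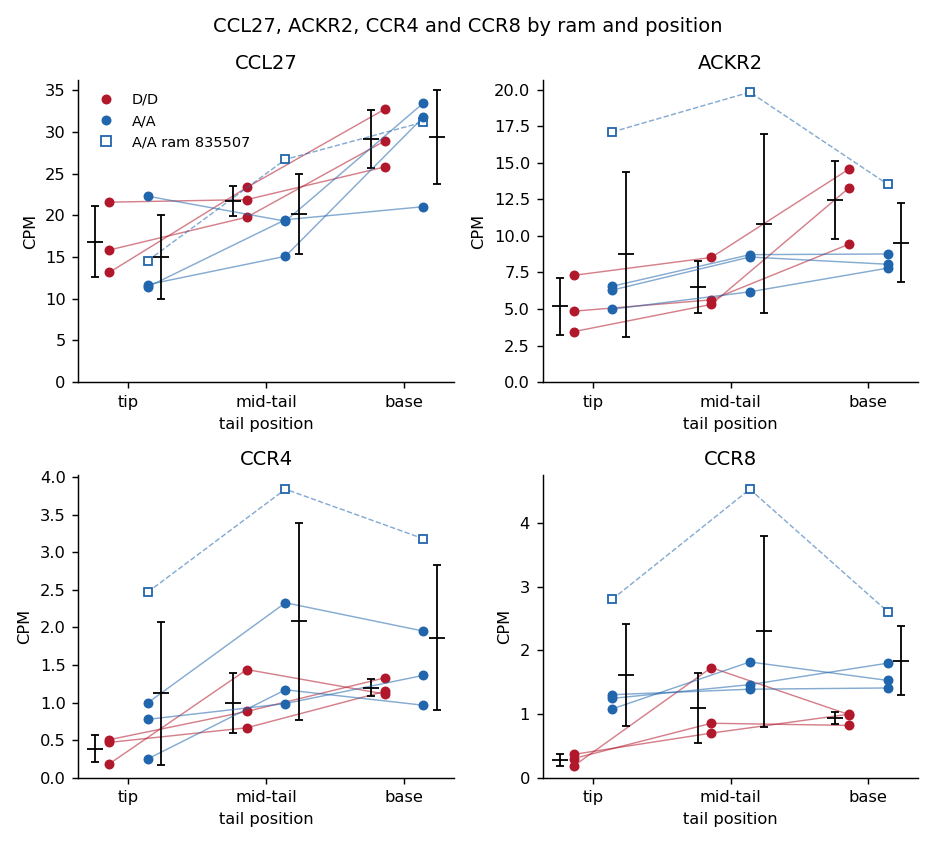
CPM of CCL27, ACKR2, CCR4 and CCR8 in each ram at tip, mid-tail and base, with lines joining the samples of a ram, open squares for A/A ram 835507 and black marks for the mean with the SD over rams. The 3 D/D tips of CCR8 (0.18 to 0.36 CPM) lie below all 4 A/A tips (1.08 to 2.80 CPM), and ACKR2 of ram 835507 lies above the other A/A rams at every position.

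The B cell chemokine CXCL13 and the interferon-induced CXCL9 also fell over all rams. CXCL13 measured 0.38, 0.25 and 0.98 CPM at the tip and 1.89, 2.16 and 0.93 CPM at the base of D/D rams, and 1.12, 1.47, 1.85 and 0.62 CPM at the tip and 3.23, 2.82, 2.48 and 1.45 CPM at the base of A/A rams. It was lower at the tip in 6 of 7 rams (-1.35, SE 0.35, adjusted p = 0.0366, edgeR). CXCR5, its receptor on B cells and follicular T cells, held 216 counts over all libraries and changed by -0.84 (SE 0.70) in D/D rams and 0.05 (SE 0.53) in A/A rams.

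CXCL9 measured 1.53, 1.26 and 0.65 CPM at the tip and 6.48, 2.32 and 1.45 CPM at the base of D/D rams, and 2.50, 3.38, 0.89 and 1.29 CPM at the tip and 9.68, 3.19, 1.77 and 1.21 CPM at the base of A/A rams. Tip and base overlapped in both genotypes, and 5 of 7 rams were lower at the tip (-1.05, SE 0.27, adjusted p = 0.0388, edgeR). Of the other ligands of the T cell receptor CXCR3, CXCL11 changed by -0.98 (SE 0.39, adjusted p = 0.188, edgeR) and CXCL10 by 0.02 (SE 0.25). The interferon response list as a whole did not follow CXCL9: 2 of 11 genes rose (IRF7 and IFIT3), none fell, and the median was 0.32.

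The calls of CXCL9 and CXCL13 over all rams were lost in most of the fits that left out a ram. Of these 7 fits, CXCL9 passed in 1 (without ram 871772) and CXCL13 in 3 (without 871772, 871784 or 871869). Over all 16 alternatives the log2 fold change stayed between -1.26 and -0.80 for CXCL9 and between -1.86 and -1.02 for CXCL13. CCL26, CCL24 and CCL27 passed in all 7, ACKR2 in 6 (not without D/D ram 871787) and CCR4 in 6 (not without D/D ram 871868).

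CXCL14 rose at the tip of A/A rams, and CCL21 was higher there in each A/A ram without passing by edgeR. CXCL14 is a chemokine that epithelium and fibroblasts make at rest, and CCL21 is made by lymphatic endothelium and guides dendritic cells and T cells through CCR7. CXCL14 measured 333, 434 and 330 CPM at the tip, 374, 381 and 417 CPM at the mid-tail and 329, 353 and 340 CPM at the base of D/D rams. In A/A rams it measured 1037, 660, 416 and 619 CPM at the tip, 536, 667, 333 and 489 CPM at the mid-tail and 545, 419, 324 and 274 CPM at the base. The D/D rams differed little between positions, while each A/A ram was higher at the tip than at its base.

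The log2 fold change of CXCL14 was 0.78 (SE 0.17, adjusted p = 0.0326, edgeR) in A/A rams and 0.10 (SE 0.19) in D/D rams. The difference between genotypes in this change was -0.68 (SE 0.26, unadjusted p = 0.018, adjusted p = 0.787, edgeR). Of the 7 fits that left out 1 ram, the A/A call held in 1, without ram 871784; without ram 835507 the change was 0.72 (adjusted p = 0.0575, edgeR).

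CCL21 measured 16.5, 21.7 and 10.2 CPM at the tip, 31.8, 36.8 and 34.7 CPM at the mid-tail and 31.2, 30.6 and 19.6 CPM at the base of D/D rams. Its A/A values were 75.2, 64.4, 14.1 and 34.5 CPM at the tip, 88.2, 50.5, 8.34 and 33.1 CPM at the mid-tail and 40.8, 25.6, 12.8 and 15.8 CPM at the base. All 3 D/D rams were lower and all 4 A/A rams higher at the tip than at the base. The log2 fold change was -0.77 (SE 0.28, adjusted p = 0.229, edgeR) in D/D rams and 0.84 (SE 0.24, adjusted p = 0.0962, edgeR) in A/A rams. DESeq2 on ram sums and on single libraries called CCL21 as risen in A/A rams, as did single libraries with the library number as a block, and it was called as lower in D/D rams fitted on their own. The difference between them was -1.62 (SE 0.37, unadjusted p = 0.00045, adjusted p = 0.469, edgeR). DESeq2 on the same sums passed this difference, and it was the 1 gene of the family that either tool passed. When ram 871784 was left out, CCL21 passed in A/A rams at the tip and at the mid-tail.

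**Figure D4:**
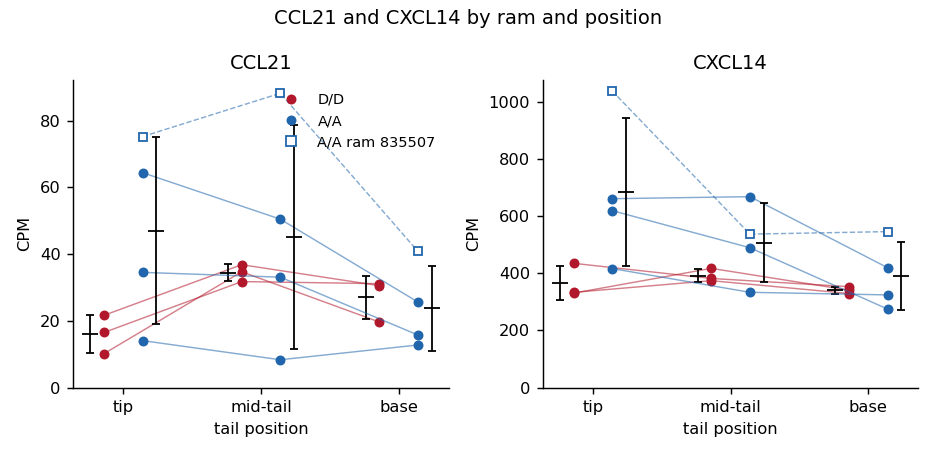
CPM of CCL21 and CXCL14 in each ram at tip, mid-tail and base, with lines joining the samples of a ram, open squares for A/A ram 835507 and black marks for the mean with the SD over rams. CCL21 averaged 16.1 CPM at the D/D tip and 27.1 CPM at the D/D base, and 47.1 CPM at the A/A tip and 23.7 CPM at the A/A base.

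CCL19, the other CCR7 ligand, measured 0.55, 0.39 and 0.47 CPM at the tip and 1.19, 2.89 and 1.33 CPM at the base of D/D rams, and 0.86, 2.22, 0.28 and 0.79 CPM at the tip and 1.95, 0.75, 1.55 and 1.49 CPM at the base of A/A rams. The D/D tip and base did not overlap (-1.86, SE 0.66, adjusted p = 0.231, edgeR), without passing. CCR7 held 382 counts over all libraries and changed by -0.45 (SE 0.39) over all rams. CCL21 and CXCL14 correlated across the 21 ram sums (r = 0.76), also with each ram's mean taken out (r = 0.58). The list of 7 lymphatic endothelium markers holds CCL21 itself, so it is not separate from the CCL21 values. In this list 1 gene fell over all rams, LYVE1, and none rose. Of the 7, 6 were lower at the tip in D/D rams (median -0.77) and 4 in A/A rams (median -0.06).

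The other ligands and receptors did not pass for position by edgeR on all 21 ram sums. CXCL12, which holds leukocytes and stem cells in tissue through CXCR4, measured 111, 180 and 129 CPM at the tip and 158, 164 and 161 CPM at the base of D/D rams, and 195, 133, 151 and 169 CPM at the tip and 124, 171, 117 and 123 CPM at the base of A/A rams. It changed by 0.03 (SE 0.12) over all rams, and CXCR4 by -0.17 (SE 0.12). CX3CL1, or fractalkine, a membrane-bound ligand of endothelium and epithelium, changed by -0.20 (SE 0.16). CXCL16, the ligand of the T cell receptor CXCR6, changed by 0.32 (SE 0.14) and CCL25, the ligand of the gut-homing receptor CCR9, by 0.04 (SE 0.20).

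CXCL8, the main neutrophil attractant, did not pass by edgeR on ram sums, but was called as risen over all rams by DESeq2 on ram sums and by the 3 fits on single libraries. It measured 1.53, 1.01 and 0.98 CPM at the tip and 0.70, 0.56 and 0.22 CPM at the base of D/D rams, and 1.38, 5.57, 0.43 and 0.83 CPM at the tip and 1.72, 0.70, 0.19 and 0.32 CPM at the base of A/A rams. CXCL8 was higher at the tip in 6 of 7 rams (1.37, SE 0.50, adjusted p = 0.142, edgeR), and its receptor CXCR2 in 6 of 7 (0.32, SE 0.15, adjusted p = 0.272, edgeR). The summed neutrophil markers ran from 12.7 to 672 CPM at the tip and from 5.21 to 124 CPM at the base. The sum was higher at the tip in every D/D ram and in A/A rams 871772 and 871932. It was near equal in A/A ram 871784 (15.1 CPM at the tip, 15.0 CPM at the base) and lower at the tip in ram 835507. Of the 4 markers tested 1 fell, TREM1, against the direction of the sum. CCL5, an attractant of T cells and monocytes, was lower at the tip in 7 of 7 rams (-0.75, SE 0.27, adjusted p = 0.137, edgeR).

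By role, the 3 tested inflammatory CC ligands were all lower at the tip over all rams (2 of them called), as were the 6 tested CC receptors (2 called, median -0.66) and the 4 atypical receptors (1 called, median -0.64). Over all genes tested 2.67% fell. Most listed inflammatory CC ligands, CCL2, CCL3, CCL4, CCL8 and CCL11 among them, had no row of their symbol. The receptors CCR1 and CCR2 had none either, so these roles are covered in part. Of the 20 tested ligands 11 were lower and 9 higher (5 called, median -0.40), and of the 13 tested typical receptors 11 were lower and 2 higher. The genes downstream of the receptors changed less: of 23 G protein, arrestin and kinase genes, 1 fell (RAC2, a small GTPase of blood cells, -0.56, SE 0.13), none rose and the median was -0.17. None of 11 NF-kB targets passed.

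No chemokine or receptor gene passed the adjusted p between genotypes by edgeR. At the tip and mid-tail, genotype cannot be told apart from distance along the tail. At an unadjusted p below 0.05 there were 3 of 31 at the tip (all lower in D/D), where 10.2% of all genes lay below it, 2 of 33 at the mid-tail (5.63% of all genes) and 3 of 33 at the base (3.2% of all genes). DESeq2 on the same sums called CCR8 at the tip. The median log2 fold change of D/D over A/A was -0.80 at the tip, -0.35 at the mid-tail and -0.03 at the base, beside -0.02, -0.03 and -0.01 over all genes.

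CCR8 at the tip had the smallest unadjusted p of these (D/D over A/A -2.50, SE 0.51, unadjusted p = 0.0012, adjusted p = 0.458, edgeR). The exact two-sided permutation test on log2(CPM + 0.5) gave p = 0.0286, the smallest that 3 against 4 rams allow, unadjusted and 1 of 34 genes tested in this way. Without ram 835507 the difference was -2.08 (adjusted p = 0.516, edgeR). CCR8 was lower in D/D rams at the base too (-0.97, SE 0.37, unadjusted p = 0.0241, adjusted p = 1.00, edgeR). CXCL14 and CCL21 were lower at the D/D tip, by -0.91 (SE 0.31) and -1.56 (SE 0.55), with unadjusted p = 0.0178 and 0.0217 and adjusted p = 0.458 each (edgeR); for CXCL14 it was -0.64 without ram 835507.

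At the mid-tail CXCR5 measured 0.09, 0.21 and 0.06 CPM in D/D rams and 0.69, 1.46, 0.45 and 0.62 CPM in A/A rams (-2.57, SE 0.67, unadjusted p = 0.0030, adjusted p = 0.848, edgeR). CCL22 measured 2.7, 1.43 and 4.66 CPM there in D/D rams and 20.3, 2.30, 2.57 and 17.3 CPM in A/A rams (-1.89, SE 0.80, adjusted p = 0.848, edgeR). The CXCR5 groups did not overlap, but 216 counts in all libraries lie behind them, and the CCL22 groups did. The summed B cell and plasma cell markers at the mid-tail were 12.5 to 19.1 CPM in D/D rams and 19.4 to 46.8 CPM in A/A rams, without overlap, and their part in the level of CXCR5 was not tested.

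The difference between genotypes in the position change was not called for any chemokine or receptor gene by edgeR. At an unadjusted p below 0.05 there were 7 of 37 for tip over base, where 6.09% of all genes lay below it, and all 7 had the lower value in D/D rams: CCL21, ACKR2, CCR8, CX3CR1, CXCL14, ACKR4 and CXCL12. For mid-tail over base there were 3 of 37, against 5.29% of all genes. The median difference over the 37 genes was -0.50 for the tip, beside -0.0014 over all genes. These comparisons share the same 7 rams, so the lower values at the tip in D/D rams and the differences between genotypes at the tip are not separate observations.

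Markers of several cell types moved along the tail with these genes. Over all rams, 6 of the 8 tested macrophage and monocyte markers fell at the tip (CSF1R, MRC1, C1QA, C1QB, C1QC and CD14; median -1.03), and the list summed to 55.1 to 103 CPM at the tip and 91.5 to 205 CPM at the base. Of 10 fibroblast markers 4 fell (COL3A1, FBLN1, MFAP5 and PI16; median -0.76), with sums of 3548 to 13258 CPM at the tip and 10710 to 21725 CPM at the base. Of 8 mast cell markers 1 fell (HDC) and all 8 were lower (median -0.42), with sums of 12.9 to 48.8 CPM at the tip and 17.3 to 49.7 CPM at the base. Over all genes tested 2.67% fell. The mean sums of some other lists differed less between tip and base. They were 61.7 and 65.0 CPM for Langerhans and dendritic cells and 416 and 433 CPM for blood endothelium. For NK cells they were 3.86 and 3.76 CPM, and for B cells and plasma cells 22.1 and 19.7 CPM. The macrophage marker CD68 had no count in any library. The part of these cell types in the falls of CCL26, CCL24, CCR4, CCR8 and ACKR2 was not tested.

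**Figure D5:**
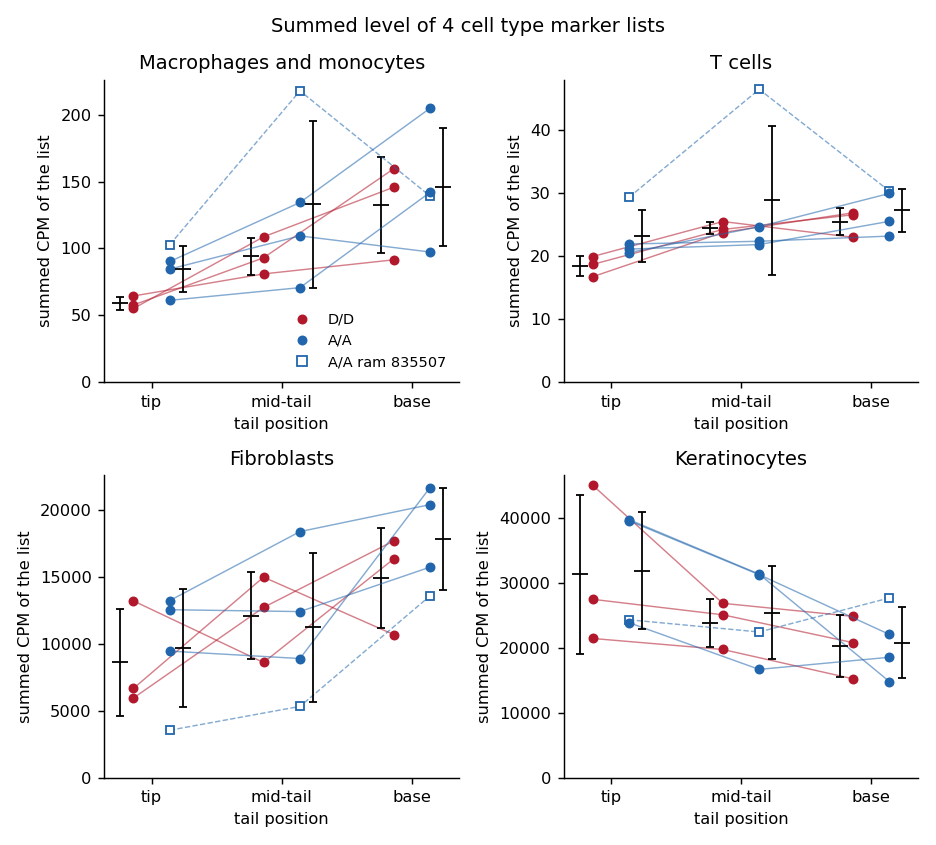
Summed CPM of the marker lists of macrophages and monocytes, T cells, fibroblasts and keratinocytes in each ram at tip, mid-tail and base, drawn as for the single genes. All 7 rams have a lower macrophage sum at the tip (55.1 to 103 CPM over the rams) than at their own base (91.5 to 205 CPM), and the keratinocyte sum reaches 45101 CPM at the tip against 27711 CPM at the base.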

How the data were processed

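Tail skin RNA of 7 rams was made into 41 strand-specific CorALL libraries after oligo(dT) selection. Reads were checked with FastQC 0.11.9, aligned with ContextMap 2 and BWA to the sheep build ARS-UI_Ramb_v3.0, and assigned to RefSeq genes by strand with featureCounts, whose version is not given in the sources used here. What the authors deposited are whole counts for 31182 genes, with 0 value columns left out. For 14 tip columns expected counts is the unit entered, because their names hold a word that an automatic check reads as a coordinate. These columns named expected counts were made by the authors like all others, hold whole numbers, and were unchanged by rounding.

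Counts of libraries from one ram and site were added, which gave 21 ram sums with the ram as the replicate. The main test was the quasi-likelihood F test (edgeR 4.0.16, R 4.3.3) with TMM scaling and filterByExpr over genotype and position. Ram entered the position model as a block, because each animal gave all sites; of 21 same-ram pairs of positions, 20 deviated together with a correlation over 0.1 (0.0515 to 0.853). D/D and A/A were compared within each position. Adjusted p-values are over all genes of a comparison, 19029 for position and 17842, 17996 and 17738 for genotype at tip, mid-tail and base.

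DESeq2 on the libraries, the tool the study names, was run as an alternative, as were DESeq2 1.42.0 and limma 3.58.1 voom on ram sums, other scaling, no filter, single libraries, no ram block and each ram left out. The fit was tested on simulated data. Genes and lists were chosen with earlier results of these data known. Genes described with the value of each ram were CCL26, every gene called, the 2 smallest p of each comparison, the highest mean CPM of each kind (4 ligands, 3 receptors, 2 atypical receptors) and partners of these (34 genes); results of some genes are not reported here; other lists are given by counts, and their named genes include some chosen after their values were seen. Exact tests used a pseudocount of 0.5 CPM. Gene coordinates are those RefSeq gives for this assembly. No sequences are printed. Depth sets the counting precision of low genes. For genotype the p-values measure the spread between rams, and for position the spread between rams in the change along the tail.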

Additional observations from a re-analysis of the deposited data

Results flagged for a closer look

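Among 72 sets of 4 A/A values, 12 held a value whose gap to the other 3, as a share of the range, was above Dixon's critical value for 4 samples, which chance gives in about 1 set of 20. At the tip, ram 835507 was high in ACKR2 (17.1 CPM against 4.99 to 6.55 CPM), CCL26 (6.03 CPM against 0.44 to 0.96 CPM), CCL5 (1.25 CPM against 0.75 to 0.80 CPM) and CCR8 (2.80 CPM against 1.08 to 1.30 CPM). At the mid-tail it was high in CCL26 (22.0 CPM against 2.16 to 3.95 CPM), CCR8 (4.53 CPM against 1.39 to 1.82 CPM) and CX3CR1 (2.43 CPM against 0.88 to 1.14 CPM). At the base it was high in ACKR2 (13.5 CPM against 7.79 to 8.76 CPM), ACKR4 (27.1 CPM against 3.86 to 7.81 CPM) and CXCL10 (8.49 CPM against 0.43 to 0.94 CPM). The values of a ram are not independent of each other, and these genes share cell types, so the 10 values are 1 animal standing apart and not 10 findings. Ram 871772 was high in CXCL12 at the base (171 CPM against 117 to 124 CPM) and low in CCL19 at the mid-tail (0.37 CPM against 1.46 to 1.60 CPM).

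CCL21 moved in opposite directions at the tip, lower than the base in 3 of 3 D/D rams and higher in 4 of 4 A/A rams; the difference between genotypes of -1.62 (unadjusted p = 0.00045) had an adjusted p of 0.469 (edgeR). XCL1, a chemokine of cytotoxic lymphocytes, was higher at the mid-tail than at the base in 3 of 3 D/D rams and lower in 4 of 4 A/A rams, with a difference of 2.18 (unadjusted p = 0.0378, adjusted p = 0.861, edgeR) from 146 counts over all libraries.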

How the results depend on the processing

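No log2 fold change followed through the alternatives changed sign, and of 187 counts of called chemokine and receptor genes under alternatives 141 were within 1.5 times the count reported. Most of these 141 were comparisons with 0 calls both in the main fit and in the alternative. The share thus says little about the comparisons that had calls, where many counts moved. RLE scaling, library totals and no filter gave the same counts in every comparison. At the tip of D/D rams (3 called), DESeq2 on ram sums called 8, single libraries 6, single libraries with ram and library number as replicate block 6, DESeq2 on single libraries 9 and D/D rams fitted on their own 8. At the tip of A/A rams (4 called), A/A rams fitted on their own gave 1. Over all rams at the tip (8 called), single libraries gave 13, with the replicate block 13, and DESeq2 on single libraries 15. For tip over mid-tail (1 called), these gave 4, 5 and 6, and DESeq2 on ram sums 5. Without the ram block, which ignores that the positions are paired within rams, 0 were called at the D/D tip, 0 at the A/A tip, 0 for tip over mid-tail and 3 over all rams at the tip (CCL26, CCL24 and CCL27). At the mid-tail (0 called), 1 gene was called in D/D rams by DESeq2 on ram sums, single libraries and DESeq2 on single libraries, 1 in A/A rams by DESeq2 on single libraries, and 1 over all rams (CCL26) by these 3 fits and by single libraries with the replicate block. CCR8 was the 1 gene called between genotypes at the tip, by DESeq2 on ram sums and by single libraries, and CCL21 the 1 called for the genotype difference in the tip change, by DESeq2 on ram sums. Fits on single libraries count libraries of a ram as separate, so their larger counts come with more samples than animals. Leaving out each ram gave 0 to 4 calls at the D/D tip, 1 to 4 at the A/A tip, 4 to 10 over all rams at the tip, 0 to 1 for tip over mid-tail, and 0 to 1 at the mid-tail of A/A rams and over all rams (CCL21 without ram 871784, CCL26 without 835507). CCL26, CCL24 and CCL27 over all rams at the tip kept their call under all 16 alternatives, with adjusted p of at most 0.0096, 0.0191 and 0.0377. With 3 D/D and 4 A/A rams, low genes such as CCR3, CCR7, CXCR5 and XCL1 could not show a difference smaller than their wide standard errors, and 6 genes could not be tested.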
